A study of Mus musculus with 9 samples.

Results

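Induced pluripotent stem cells (iPS cells), made by reprogramming somatic cells, were compared with the mouse embryonic stem cell line R1. The 6 arrays labelled iPS or R1, 3 of each, were taken from a series of 9, and the remaining 3 arrays were embryonic fibroblasts (MEF). Per the labels, the fibroblasts were cultured to a passage below 3 and gave rise to the iPS cells. The design text calls the arrays of a line biological repeats and names the embryonic stem cells and the fibroblasts as controls. Neither strain, sex, culture medium, number of clones nor reprogramming factors of the iPS cells is given in the sources used here. The p-values cover the spread among arrays of the same group, the MEF arrays included. Since separate derivations are not stated, these values cannot be taken to cover the spread among derivations, and each line may be a single clone.

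Total RNA was hybridised to whole-transcript arrays made by Affymetrix, which give 1 signal, a linear brightness value, per probe set. All 19938 genes with a named probe set entered the comparison. A difference is iPS minus R1 on the scale log2(signal + 16), given with its standard error, and it understates the change of dim genes. A gene was called, and is said to have risen or fallen, at a limma adjusted p under 0.05 together with an absolute difference of 1 or more. Signals of different genes are not comparable with each other.

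Mouse embryonic stem cells are held in an undifferentiated state by a network of transcription factors around Oct4 (Pou5f1), Sox2 and Nanog, and by the cytokine LIF, which acts through the receptor Lifr and Stat3. Reprogramming of a somatic cell restores that network, and imprinted genes, germline genes and microRNAs are among the genes known to vary between independently derived pluripotent lines. The title of the series concerns tetraploid complementation, a test of pluripotency in which injected cells have to form the embryo proper.

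MicroRNA genes of 2 clusters stood on both sides of the comparison, and their mature sequences are printed here because the seed guides which messages a microRNA pairs with. Seeds, bases 2 to 8, are in capitals, and the sequences are RefSeq's on GRCm38.p6. The first set belongs to the Mir302 and Mir367 genes, which are typical of pluripotent cells and of the early epiblast. The 5p forms of miR-302b, miR-302c and miR-302d share a seed, as do the 3p forms of miR-302b and miR-302d.
miR-302b-5p: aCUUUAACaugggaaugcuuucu
miR-302b-3p: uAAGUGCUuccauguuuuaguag
miR-302c-5p: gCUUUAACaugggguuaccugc
miR-302c-3p: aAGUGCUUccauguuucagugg
miR-302d-5p: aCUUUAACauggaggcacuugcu
miR-302d-3p: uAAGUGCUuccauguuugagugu
miR-302a-5p: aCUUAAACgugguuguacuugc
miR-367-3p: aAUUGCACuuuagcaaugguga
The second set belongs to microRNA genes between Dlk1 and Dio3, an imprinted region, and no seed among these is shared.
miR-380-3p: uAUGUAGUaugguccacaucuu
miR-300-3p: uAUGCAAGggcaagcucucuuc
miR-382-5p: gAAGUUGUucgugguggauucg
miR-329-3p: aACACACCcagcuaaccuuuuu
miR-487b-5p: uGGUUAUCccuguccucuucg
miR-411-5p: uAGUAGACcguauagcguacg

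The labels of the stem cell arrays matched their markers. Over 10 genes of undifferentiated stem cells the summed signal was 36613 to 37950 in R1, 30759 to 32431 in iPS and 506 to 640 in MEF arrays, and 1 of the 10, Zfp42, fell. Over 10 fibroblast genes the sum was 2646 to 3650 in R1, 3655 to 4543 in iPS and 32236 to 37153 in MEF arrays, with none of the 10 called. The 6 arrays had median signals of 81.6 to 83.3. Across genes, which are not independent replicates, Pearson correlations were 0.989 to 0.992 between R1 and iPS arrays and at least 0.995 within either group. Of the iPS arrays, replicate 1 was the least like R1, at 0.9891 to 0.9896, against 0.9913 to 0.9924 for replicates 2 and 3. With 3 arrays a group, their number limits the precision, and an exact permutation test of a single gene could not go below p = 0.10.

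Most genes differed little between the lines, and a small set differed by several fold. In all, 92 genes were called, 0.461% of those tested. Of these, 59 rose (0.296%) and 33 fell (0.166%) in iPS cells, and in all 92 the signals of the 3 iPS arrays did not overlap those of the 3 R1 arrays, which held for 4374 genes (21.9%) over the whole table. Without the minimum difference, 1699 genes (8.52%) passed, 821 higher (4.12%) and 878 lower (4.40%), so most differences that passed the test were smaller than 2-fold. The number of genes that fell depended on single arrays: it was 50 without iPS replicate 3 and 25 without iPS replicate 1. Of the 92 genes, 57 stayed called in each of the 6 fits that left out an R1 or iPS array. Testing against a difference of 1, rather than 0, left 10 genes: Ccnb1ip1, Zfp42, Triml2, Adam23, Pttg1 and Fmr1nb below, and 2210409E12Rik, AI506816, Apoa2 and Klhl13 above.

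**Figure D1:**
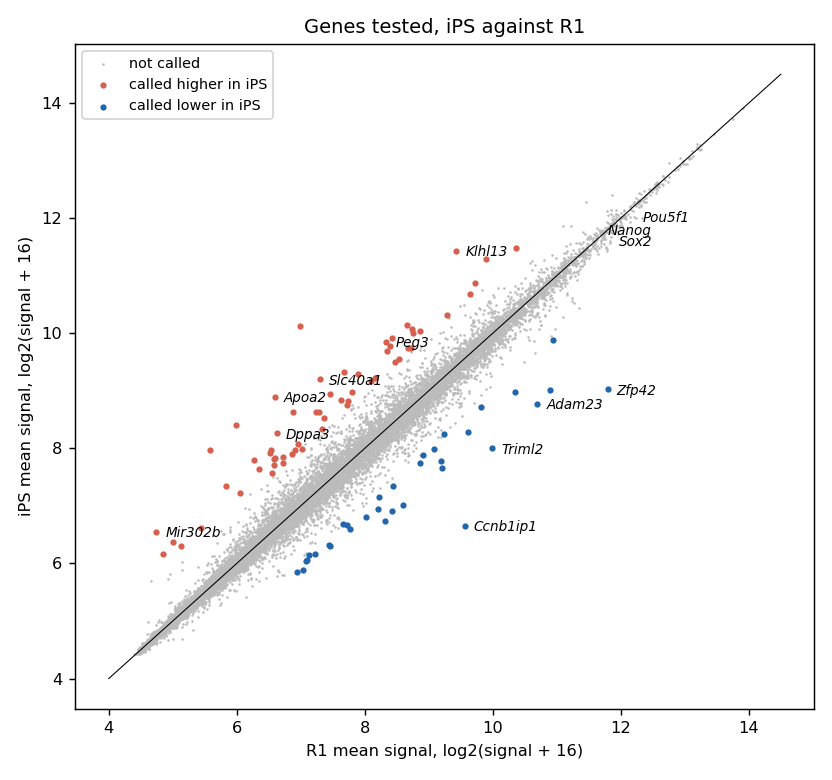
Mean level of each gene in R1 (x axis) and iPS cells (y axis), both as log2(signal + 16), with 3 arrays a group; the line marks equal levels, red points are the 59 genes that rose and blue points the 33 that fell. Pou5f1, Sox2 and Nanog lie close to the line at its upper end, while Ccnb1ip1, Zfp42 and Triml2 lie far below it.

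Among the core factors, Pou5f1, Sox2 and Nanog were not called. Pou5f1, which encodes Oct4, read 4576, 4837 and 4705 in R1 and 3929, 4240 and 4240 in iPS arrays (-0.19 ± 0.09, limma adjusted p = 0.286). Sox2, the partner of Oct4 on DNA, read 3743, 3591 and 3566 against 3019, 3214 and 3083 (-0.23 ± 0.07, limma adjusted p = 0.0794). Nanog read 3061, 3616 and 2937 against 3591, 3717 and 3281 (0.14 ± 0.09, limma adjusted p = 0.455). The iPS arrays were thus below all R1 arrays for Pou5f1 and Sox2, by less than the minimum difference, and overlapped them for Nanog. Klf4, a factor downstream of LIF, read 1418, 1531 and 1520 in R1 and 904, 1003 and 969 in iPS arrays. Its difference of -0.63 ± 0.06 passed the test (limma adjusted p = 0.000299) but not the minimum. Myc was at 827 ± 133 (SD, n = 3) in R1 and 660 ± 78 in iPS cells (-0.31 ± 0.12, limma adjusted p = 0.167). The arrays do not tell endogenous transcripts from those of any introduced factor that shares the probed sequence.

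Of 49 measured genes of the wider pluripotency network, 1 rose and 2 fell, where 0.461% of all genes were called. The median difference was -0.09 against -0.01 over all genes tested. Zfp42 carried the largest difference. It encodes the zinc-finger protein Rex1, used as a marker of the naive state. Its signals were 3541, 3795 and 3281 in the R1 arrays and 446, 519 and 553 in the iPS arrays, and the MEF mean was 33.8. Every iPS array was thus far below the R1 arrays and far above the fibroblasts. The fall was 7.0-fold between the means, -2.77 ± 0.11 (limma adjusted p = 2.92e-06), and between -2.84 and -2.69 in all alternative fits. Otx2, a transcription factor of the epiblast moving towards differentiation, also fell: 910, 508 and 879 in R1 against 307, 193 and 383 in iPS arrays (-1.34 ± 0.26, limma adjusted p = 0.0132). The Otx2 call was lost without R1 replicate 1 (-1.19, adjusted p = 0.0584), without R1 replicate 3 (-1.22, adjusted p = 0.0506) and with the 6 arrays fitted alone (adjusted p = 0.0505). At an adjusted p under 0.05 without the minimum, 13 of the 49 differed, 4 higher and 9 lower, against 8.52% of all genes. Sall1, a zinc-finger repressor, was just short of the minimum at -0.98 ± 0.07, with 1417 ± 89 in R1 and 709.6 ± 67 in iPS arrays (SD, n = 3). Esrrb (-0.50 ± 0.12) and Klf5 (-0.43 ± 0.09), both transcription factors of the naive network, had smaller differences, and Nodal, the ligand that maintains the epiblast, was at 0.83 ± 0.20.

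Zfp42 was not alone at its place on chromosome 8. Triml2, the tested gene next to it in the annotation and a member of the tripartite-motif-like family, read 1010, 962 and 1038 in R1 arrays against 208, 278 and 236 in iPS arrays, a 4.17-fold fall (-1.999 ± 0.09, limma adjusted p = 1.15e-05). Triml1, the next gene on that side, named here after its values were seen, read 498, 541 and 666 against 252, 286 and 298. Its difference of -0.98 ± 0.14 (limma adjusted p = 0.00314) missed the minimum. Beyond these, Zfp353-ps (0.04) and, on the other side of Zfp42, Adam26b (0.07) and Adam26a (0.00) showed no difference that passed the test. Their means were under 50 in both lines, so a fall could hardly show there. Frg1, the gene beyond Zfp353-ps, had means of 725 in R1 and 587 in iPS arrays. Its difference of -0.30 ± 0.05 passed the test (limma adjusted p = 0.00998) but not the minimum. Windows of 300 bases around the starts of Zfp42 and Triml2, 250 before and 50 after, are printed to show both start regions. The Zfp42 window, chr8:43306960-43307259 on the minus strand, holds the octamer ATGCAAAT, the core letters that Oct4 recognises, once on the reverse strand and so written ATTTGCAT in capitals. The Triml2 window, chr8:43180286-43180585 on the plus strand, holds none.
Zfp42: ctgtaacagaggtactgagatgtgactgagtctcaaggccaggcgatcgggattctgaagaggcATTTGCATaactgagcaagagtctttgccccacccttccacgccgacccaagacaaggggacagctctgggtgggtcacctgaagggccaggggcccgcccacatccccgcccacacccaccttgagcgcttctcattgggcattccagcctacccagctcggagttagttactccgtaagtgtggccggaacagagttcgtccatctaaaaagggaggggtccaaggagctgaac
Triml2: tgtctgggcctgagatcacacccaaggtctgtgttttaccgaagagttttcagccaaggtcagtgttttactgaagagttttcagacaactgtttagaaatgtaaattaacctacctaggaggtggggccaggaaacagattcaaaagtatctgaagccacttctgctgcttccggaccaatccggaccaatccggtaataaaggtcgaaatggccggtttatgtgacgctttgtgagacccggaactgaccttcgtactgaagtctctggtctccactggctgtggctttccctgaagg
Searched on both strands, the octamer occurred in 1.74% of 32851 promoter windows and in 1.90% of the 15614 tested genes that had a window. Among called genes with a window it occurred in 1 of 26 that fell (Zfp42) and in 2 of 39 that rose (Sh3bgrl and Pim2). A match describes letters only.

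Pairs of called neighbours occurred at 5 places, 10 genes of the 91 called genes with a place in the annotation, each pair with the same sign. Besides Triml2 with Zfp42 these were Zdbf2 with Adam23, Elobl with 2210409E12Rik, Mir302b with Mir302c, and Hmgn5 with Sh3bgrl. For Elobl the signals were 35.8, 54.2 and 52.7 in R1 against 195, 526 and 242 in iPS arrays (2.30 ± 0.30, limma adjusted p = 0.00202). Its neighbour 2210409E12Rik, a Riken gene named outside the rule because it had the largest increase of all, read 113, 115 and 106 against 982, 1458 and 861 (3.10 ± 0.17, limma adjusted p = 2.05e-05). Next to the pair, Scpep1 (-0.08) and Coil (0.06) did not pass the test. On the X chromosome, Hmgn5, a nucleosome-binding protein gene, rose by 1.07 ± 0.11 (0.99 with array weights, below the minimum) and Sh3bgrl by 1.16 ± 0.09. Their neighbours Brwd3 (0.24) and Gm6377 (0.00) were not called. Gm6377 had a mean of 12.1 in both lines, where signal and background were not told apart.

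**Figure D2:**
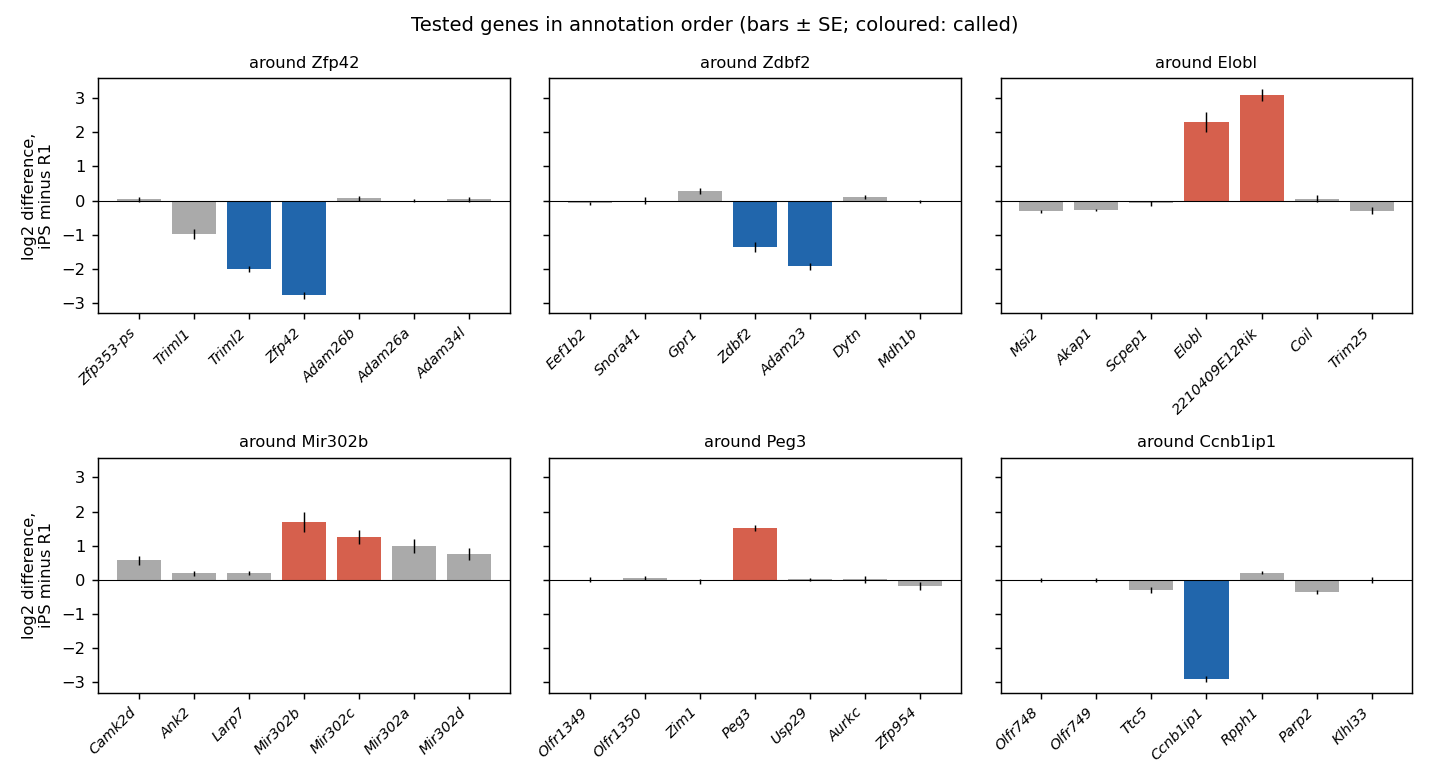
Differences iPS minus R1 (log2, bars with the SE of the fit) of tested genes in annotation order around Zfp42, Zdbf2, Elobl, Mir302b, Peg3 and Ccnb1ip1, 1 panel each, with called genes coloured red where they rose and blue where they fell. Around Zfp42, Zdbf2, Elobl and Mir302b the adjoining gene was called with the same sign, while Peg3 and Ccnb1ip1 were the only called genes of their panels.

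Genes of meiosis and the germline moved both ways. Of 45 measured, 1 rose and 3 fell, where 0.461% of all genes were called, with a median difference of 0.00. Ccnb1ip1, which encodes the ring-finger protein Hei10 that acts in meiotic crossing over, had the largest decrease of all genes tested. It read 709, 771 and 739 in R1 arrays and 77.7, 83.3 and 93.7 in iPS arrays. Both groups were tight, and iPS cells were nearer to the MEF mean of 34.9 than to R1. The decrease was 8.71-fold, -2.91 ± 0.08 (limma adjusted p = 5.91e-07). Its neighbours Ttc5 (-0.29, limma adjusted p = 0.0751) and Rpph1 (0.21, limma adjusted p = 0.0329) were not called. Rpph1 passed the test without the minimum, as did Parp2, the gene beyond it (-0.36 ± 0.05, limma adjusted p = 0.00200). Sycp3, a part of the synaptonemal complex, read 212, 309 and 315 against 111, 86.8 and 124 (-1.25 ± 0.15, limma adjusted p = 0.00151). Tex14, needed for the bridges between germ cells, read 278, 276 and 296 against 100.4, 145 and 135 (-1.08 ± 0.10, limma adjusted p = 0.000408), a call lost without iPS replicate 1 (-0.94) and with array weights (-0.995). Dppa3, the gene of Stella, a maternal protein that guards methylation in the early embryo, rose: 83.3, 72.0 and 92.4 in R1 against 282, 251 and 338 in iPS arrays (1.63 ± 0.17, limma adjusted p = 0.000660). Its second probe set gave 1.79. The genes beside it, Gdf3 (0.25) and Nanog (0.14), were not called.

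Chosen after their values were seen, 2 further germline genes outside the list also fell. Stag3, the meiotic cohesin subunit, read 505, 613 and 468 against 215, 242 and 258 (-1.09 ± 0.11, limma adjusted p = 0.000527), and without R1 replicate 2 it missed the minimum (-0.98). Sohlh2, a transcription factor of early germ cells, fell by 1.20 ± 0.09. Members of the list that passed the test but not the minimum lay on both sides. Meioc, which holds germ cells in meiosis, was at -0.90 ± 0.16, Mael, of the piRNA pathway, at -0.70 ± 0.15, and Tdrd12, also of the piRNA pathway, at 0.82 ± 0.07. The promoter windows of Sycp3 and Stag3 are printed because both hold the palindrome CACGTG, an E-box, in capitals. They lie at chr10:88459337-88459636 and chr5:138280259-138280558, both on the plus strand.
Sycp3: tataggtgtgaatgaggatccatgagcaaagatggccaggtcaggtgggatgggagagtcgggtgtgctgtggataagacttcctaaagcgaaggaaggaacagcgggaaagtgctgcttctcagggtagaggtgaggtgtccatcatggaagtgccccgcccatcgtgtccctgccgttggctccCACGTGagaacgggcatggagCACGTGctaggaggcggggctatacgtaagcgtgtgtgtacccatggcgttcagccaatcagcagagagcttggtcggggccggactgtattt
Stag3: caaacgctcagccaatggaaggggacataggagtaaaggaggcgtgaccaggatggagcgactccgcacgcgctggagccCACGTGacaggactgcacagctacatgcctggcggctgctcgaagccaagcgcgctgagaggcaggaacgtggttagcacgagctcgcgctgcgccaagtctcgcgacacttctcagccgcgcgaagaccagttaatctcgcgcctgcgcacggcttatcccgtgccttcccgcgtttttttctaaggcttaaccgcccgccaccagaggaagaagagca
CACGTG occurred in 7.15% of 32851 windows and in 9.50% of tested genes with a window. It was found in 3 of 26 genes that fell (Sycp3, Stag3 and Ceacam1) and in 2 of 39 that rose (Sema3e and Uty), and it was found in the windows of neither Ccnb1ip1 nor Triml2.

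**Figure D3:**
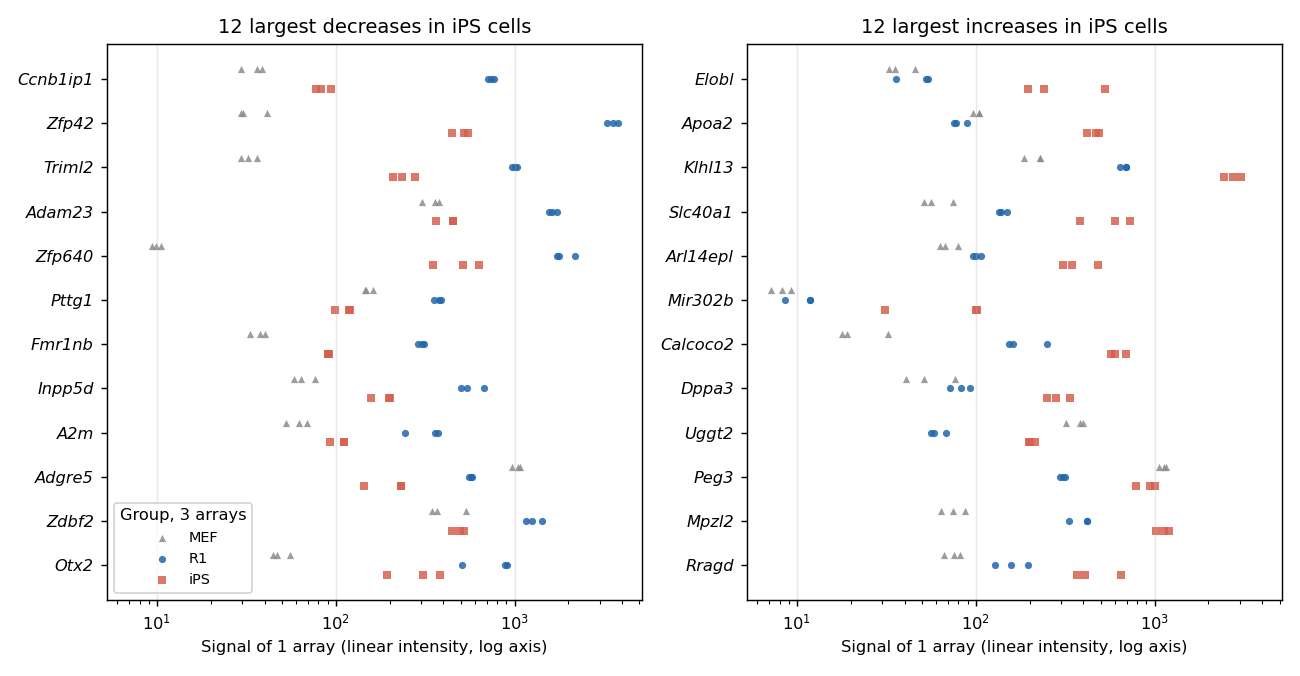
Signal of every array (linear intensity on a log axis) for the 12 largest decreases and the 12 largest increases among called genes, Riken and predicted symbols left out, with MEF, R1 and iPS cells as separate markers. The 24 genes were chosen among those whose R1 and iPS points do not overlap. The MEF points lie beyond the R1 points for some increases, such as Peg3, and below both stem cell lines for Zfp42.

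The receptor side of LIF signalling was lower in iPS cells for 1 gene. Lifr, which binds LIF, read 962, 815 and 867 in R1 against 350, 422 and 443 in iPS arrays, a 2.18-fold fall (-1.10 ± 0.10, limma adjusted p = 0.000275), although without iPS replicate 1 it reached -0.999 and so just missed the minimum. None of the other 20 measured genes of the list was called, where 0.461% of all genes were. Il6st, the shared signalling partner gp130, was at -0.41 ± 0.07, the feedback inhibitor Socs3 at -0.42 ± 0.10 and the target kinase Pim3 at -0.50 ± 0.12. Pim1, another target kinase, was at 0.98 ± 0.14, with 705 ± 74 in R1 and 1399.9 ± 67 in iPS arrays (SD, n = 3). Pim2, of the same kinase family, rose from 413, 362 and 474 to 1361, 760 and 917 (1.22 ± 0.20, limma adjusted p = 0.00665), and without iPS replicate 1, the highest array, it was at 0.98.

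FGF and ERK feedback genes held 1 call in each direction among 29 measured, where 0.461% of all genes were called. Spry4, an inhibitor of ERK signalling, read 1872, 2353 and 1596 in R1 against 588, 910 and 1278 in iPS arrays (-1.10 ± 0.25, limma adjusted p = 0.0274). The iPS arrays spread widely, and the call was lost without R1 replicate 1 (adjusted p = 0.0835), R1 replicate 2 (-0.96), iPS replicate 1 (-0.82) or iPS replicate 2 (adjusted p = 0.0731), and with the 6 arrays alone (adjusted p = 0.0723). Fgfbp1, a carrier protein of FGFs, rose from 91.8, 91.8 and 56.9 to 189, 158 and 280 (1.21 ± 0.20, limma adjusted p = 0.00699), but was at 0.99 without iPS replicate 3. The immediate-early genes Egr1 (0.67 ± 0.11) and Fos (0.75 ± 0.15) passed the test without the minimum. Jun, named outside the rule, rose from 223 ± 32 in R1 to 607 ± 110.1 in iPS arrays (SD, n = 3), 1.38 ± 0.13, with a MEF mean of 1468. Of 39 Wnt genes, Wnt8a, a ligand of the early embryo, was the 1 called, at 74.5, 67.2 and 88.0 against 380, 143 and 179 (1.32 ± 0.28, limma adjusted p = 0.0214). That value leaned on iPS replicate 1, without which it was 0.93, and leaving out R1 replicate 1 (adjusted p = 0.0748) or 2 (adjusted p = 0.0649) also ended the call, as did fitting the 6 arrays alone (adjusted p = 0.0642).

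Imprinted genes, expressed from 1 parental copy, gave 3 calls among 25 measured paternally expressed genes and none among 27 maternally expressed ones. Over all genes tested 0.461% were called. The median was 0.02 in both lists. Peg3, a paternally expressed zinc-finger gene, read 309, 317 and 296 in R1 against 787, 942 and 1003 in iPS arrays, a 2.96-fold rise (1.51 ± 0.08, limma adjusted p = 2.05e-05). The iPS arrays came close to the MEF mean of 1111. Its neighbours Usp29 (0.01) and Zim1 (-0.04) did not pass the test. Both had means under 50 in both lines, where signal and background were not told apart. Sfmbt2, a Polycomb-related gene, read 317, 357 and 311 against 1323, 739 and 781 (1.44 ± 0.18, limma adjusted p = 0.00185). Zdbf2 fell, from 1160, 1252 and 1428 to 519, 449 and 495 (-1.36 ± 0.15, limma adjusted p = 0.000762), and with it its neighbour Adam23, a membrane protein of the disintegrin family, from 1734, 1563 and 1629 to 365, 452 and 452 (-1.92 ± 0.10, limma adjusted p = 2.05e-05). The genes on both sides of this pair, Gpr1 (0.28) and Dytn (0.10), were not called. Of the maternally expressed genes, the largest difference was that of Cdkn1c, a cell cycle inhibitor (0.67 ± 0.08, limma adjusted p = 0.00162), and Grb10, a brake on insulin signalling, was at 0.62 ± 0.04.

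In the Dlk1-Dio3 region, whose maternally expressed RNAs and microRNAs have been compared between iPS lines, none of the 6 listed genes was called. Meg3, the long maternal RNA, was at 1122 ± 147 in R1 and 933 ± 168 in iPS arrays (SD, n = 3; -0.27 ± 0.13, limma adjusted p = 0.285). Rian, the next long RNA, was at 171 ± 15 against 117 ± 19 (-0.49 ± 0.11, limma adjusted p = 0.0230). Dlk1 (0.13), Rtl1 (0.02), Dio3 (0.04) and Begain (-0.17) did not pass the test. The microRNA genes between Dlk1 and Dio3 were picked out after their values were seen. Of 40 measured there, 38 had a lower mean log2 level in iPS cells (10560 of all 19938 genes did), the median difference was -0.32, and 12 passed the test without the minimum, against 8.52% of all genes. In 23 of the 40 the iPS and R1 arrays did not overlap, against 21.9% of all genes. Of the 40, 14 had a mean under 50 in both lines, as did 5953 of all 19938 genes. Signal and background were not told apart at such levels. The 260 microRNA genes elsewhere had a median of -0.01. The same 38 of 40 were counted after median centring and after quantile normalization. These genes lie in 1 region and are processed from shared host RNAs, so they are not independent of each other.

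The largest differences in that region passed the minimum by little. Mir380 read 121, 102 and 133 in R1 against 47.5, 34.5 and 68.1 in iPS arrays (-1.05 ± 0.21, limma adjusted p = 0.0141). Mir300 read 119, 105 and 145 against 60.5, 32.4 and 71.5 (-1.01 ± 0.20, limma adjusted p = 0.0151). Both are named outside the rule, and both lost their call without R1 replicate 1 (adjusted p = 0.0560 and 0.0533), R1 replicate 3 (-0.98 and -0.90) or iPS replicate 2 (-0.88 and -0.76). Mir382 was at -0.89 ± 0.21, Mir329 at -0.77 ± 0.11, Mir487b at -0.73 ± 0.13 and Mir411 at -0.65 ± 0.14, with none called. Of the 3 iPS arrays, replicate 2 was the lowest for 32 of the 40 genes. The MEF mean of Mir380 (129) was in the range of the R1 arrays, and that of Mir300 (96.04) was below the lowest R1 array, 105. The probe sets read RNA at the microRNA gene, in labelled total RNA, so host transcript and mature microRNA are not told apart.

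The Mir302 and Mir367 genes went the other way. Mir302b read 8.63, 11.9 and 11.9 in R1 against 101, 30.9 and 100.4 in iPS arrays (1.69 ± 0.29, limma adjusted p = 0.00858). Mir302c read 13.9, 11.6 and 13.4 against 74.5, 28.8 and 64.4 (1.25 ± 0.21, limma adjusted p = 0.00741). Replicate 2 was the lowest iPS array for all 5 genes, yet for both called genes it stayed above every R1 array. Mir302a (0.98 ± 0.20, limma adjusted p = 0.0177) and Mir302d (0.76 ± 0.18, limma adjusted p = 0.0318) passed the test without the minimum, and Mir367 did not (0.36 ± 0.12, limma adjusted p = 0.110). The R1 and MEF signals of these 5 genes lay far below the array medians, where signal and background were not told apart, and genes with a mean under 50 over the 9 arrays, Mir302b and Mir302c among them, drop out when dim genes are left out. The difference also depends on the added constant: with 32 added in place of 16, Mir302c was at 0.93 and missed the minimum. Mir302b kept its call there, but lost it in the fit of the 6 arrays with a replicate block (adjusted p = 0.0550). Among the genes around the cluster, Larp7 was at 0.20 and Ank2 at 0.20.

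**Figure D4:**
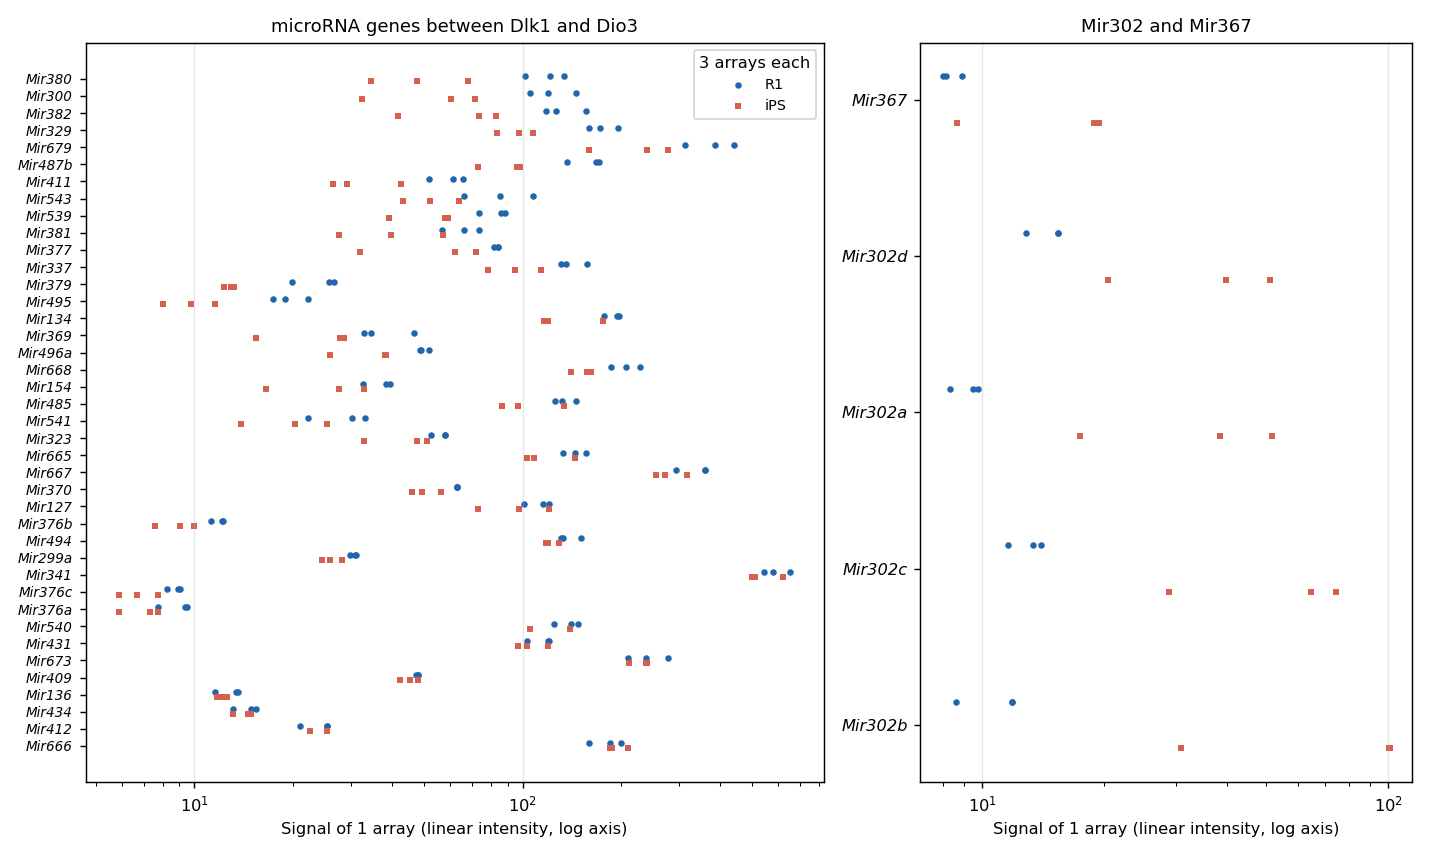
Signal of each R1 and iPS array (linear intensity on a log axis, 3 points a group) for the 40 microRNA genes between Dlk1 and Dio3, ordered by difference, and for Mir302a to Mir302d and Mir367. The groups do not overlap for Mir380 and Mir300 at the top of the first panel, and the iPS points of Mir302b and Mir302c lie to the right of the R1 points.

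The largest increases were of mixed kinds. Apoa2, an apolipoprotein of high-density lipoprotein made by liver and yolk sac, read 89.3, 77.7 and 76.1 in R1 against 419, 491 and 471 in iPS arrays, with a MEF mean of 102. The rise was 5.68-fold (2.30 ± 0.07, limma adjusted p = 1.09e-06). No other of 23 measured apolipoproteins and lipid carriers was called, and Apoe was at 0.76 ± 0.10. Of 29 primitive endoderm genes, where Apoa2 was also listed, 1 rose and 1 fell, against 0.461% called of all genes. The second was Cubn, an endocytic receptor, at 83.9, 86.8 and 148 against 46.2, 39.1 and 40.2 (-1.04 ± 0.16, limma adjusted p = 0.00496), which missed the minimum without R1 replicate 3 (-0.81). The summed signal of 8 primitive endoderm markers was 741 to 795 in R1, 579 to 692 in iPS and 1710 to 1794 in MEF arrays. Dab2 and Gata6 had higher means in MEF arrays, 1109 and 303, than in either stem cell line. The sum is therefore not particular to primitive endoderm. Slc40a1, which encodes the iron exporter ferroportin, read 150, 139 and 134 against 729, 383 and 600.5 (1.85 ± 0.20, limma adjusted p = 0.000750), the 1 call among 27 genes of iron handling. Klhl13, an X-linked adaptor of a ubiquitin ligase, read 689.8, 689.8 and 644 against 2452, 3040 and 2759, a 4.08-fold rise (1.998 ± 0.09, limma adjusted p = 1.15e-05). Further increases were Arl14epl (1.73 ± 0.14), the autophagy receptor gene Calcoco2 (1.66 ± 0.19), the glycoprotein-folding sensor Uggt2 (1.52 ± 0.08), the adhesion gene Mpzl2 (1.49 ± 0.12) and Rragd, a GTPase of nutrient sensing (1.46 ± 0.20).

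Of the remaining large decreases, Zfp640 fell from 1722, 2180 and 1771 to 352, 516 and 635 (-1.91 ± 0.18, limma adjusted p = 0.000339). It has zinc-finger paralogues of very similar sequence, so the member measured is uncertain, and its other 2 probe sets gave -1.59 and -2.23. Pttg1, securin, which keeps sister chromatids from separating before anaphase, read 355, 377 and 388 against 120, 119 and 99.04 (-1.60 ± 0.07, limma adjusted p = 1.15e-05). Fmr1nb, an X-linked gene expressed in testis, read 311, 290 and 302 against 90.5, 90.5 and 91.8 (-1.57 ± 0.06, limma adjusted p = 2.17e-06). Inpp5d, the phosphatase Ship1, fell by 1.54 ± 0.13, the protease inhibitor gene A2m by 1.49 ± 0.15 and the adhesion receptor gene Adgre5 by 1.45 ± 0.15.

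Epithelial genes gave 4 increases and no decrease among 27 measured, where 0.296% of all genes rose. Their median was 0.20, and 23 of the 27 differences were positive, against 9366 of all 19938. Cldn4, a claudin of tight junctions, read 410, 396 and 425 in R1 against 1144, 969 and 1053 in iPS arrays (1.33 ± 0.09, limma adjusted p = 6.06e-05). Esrp1, the epithelial splicing regulator, read 468, 399 and 478 against 1128, 861 and 1105 (1.17 ± 0.12, limma adjusted p = 0.000556). Rab25, a GTPase of apical recycling, read 111, 91.8 and 123 against 231, 204 and 324 (1.09 ± 0.15, limma adjusted p = 0.00293). Cldn6 read 468, 340.1 and 416 against 923, 719 and 891 (1.02 ± 0.12, limma adjusted p = 0.00119). All iPS arrays exceeded all R1 arrays in each of the 4, as they did in every gene that rose. Rab25 missed the minimum without R1 replicate 2 (0.99) or iPS replicate 3 (0.91), and Cldn6 without R1 replicate 2 (0.90), iPS replicate 1 (0.96) or iPS replicate 3 (0.98). Without the minimum, 11 of the 27 were higher and 1 lower, against 4.12% and 4.40% of all genes. Among the 11 were the keratin gene Krt8 (0.77 ± 0.16), Cldn7 (0.78 ± 0.14) and the adhesion molecule gene Epcam (0.49 ± 0.09). Jup, plakoglobin, was the 1 below (-0.49 ± 0.11). Tfap2c, a trophoblast factor also active in naive cells (0.69 ± 0.07), and Gata3 (0.49 ± 0.05) were among 5 of 16 trophoblast genes that passed without the minimum, and none of the 16 was called. The sum over 7 trophoblast markers was 791 to 909 in R1 and 1607, 1124 and 1127 in iPS arrays, the highest being replicate 1. Of the 7, Krt8, also among the epithelial genes above, Krt18 (0.57) and Gata3 passed the test without the minimum. Eomes (0.77), Cdx2 (0.13), Elf5 (-0.05) and Hand1 (-0.03) did not. The part of trophoblast genes in the epithelial differences was not tested.

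Of 41 measured fibroblast and matrix genes, 2 rose and none fell, where 0.296% of all genes rose. Positive differences were found for 37 of the 41, against 9366 of all 19938 genes, with a median of 0.23. Without the minimum 7 passed the test, all of them higher, a direction in which 4.12% of all genes passed. Acta2, smooth muscle actin, read 370, 976 and 478 in R1 against 1361, 1252 and 1160 in iPS arrays (1.15 ± 0.27, limma adjusted p = 0.0334), beside a MEF mean of 10159. Tagln, another smooth muscle gene, read 168, 393 and 209 against 639, 516 and 534 (1.17 ± 0.24, limma adjusted p = 0.0176), with a MEF mean of 5904. R1 replicate 2 was the highest R1 array for both, and it also had the highest R1 sum of the 10 fibroblast markers, 3650 against 2697 and 2646. The Acta2 call was lost in 8 of the 9 fits that left out an array, those without R1 replicate 1 (0.86), R1 replicate 3 (adjusted p = 0.110), iPS replicate 1 (adjusted p = 0.0978), iPS replicate 2 (adjusted p = 0.0917), iPS replicate 3 (adjusted p = 0.0694) and each MEF array (adjusted p = 0.0506 to 0.0604), and with the 6 arrays alone (adjusted p = 0.0985). Tagln lost its call without R1 replicate 1 (0.92), R1 replicate 3 (adjusted p = 0.0647) or iPS replicate 1 (adjusted p = 0.0614) and with the 6 arrays alone (adjusted p = 0.0631). Col1a1 (0.67 ± 0.15), Cdh11 (0.68 ± 0.14) and Prrx1 (0.53 ± 0.12) passed without the minimum. Ccn2 (1.18 ± 0.14) and Ccn1 (1.05 ± 0.08), secreted matrix-associated proteins named outside the rule, rose, with MEF means of 7288 and 6071, and Ccn1 missed the minimum without R1 replicate 3 (0.97). All 3 iPS sums of the 10 fibroblast markers lay above the 3 R1 sums, though the lowest, 3655 in replicate 2, was close to the highest R1 sum, 3650. More fibroblast-like cells and more such RNA per cell cannot be told apart in these bulk samples, and the part of such cells in other results, Peg3 and Jun included, was not tested. Zfp42, Ccnb1ip1, Triml2 and the increases Apoa2, Klhl13, Slc40a1 and Dppa3 had MEF means between 32.8 and 215, below the mean of the higher stem cell line in each case. The MEF mean of Apoa2, 102, was above its R1 mean of 81.0, and the part of fibroblast-like cells in these genes was not tested either.

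**Figure D5:**
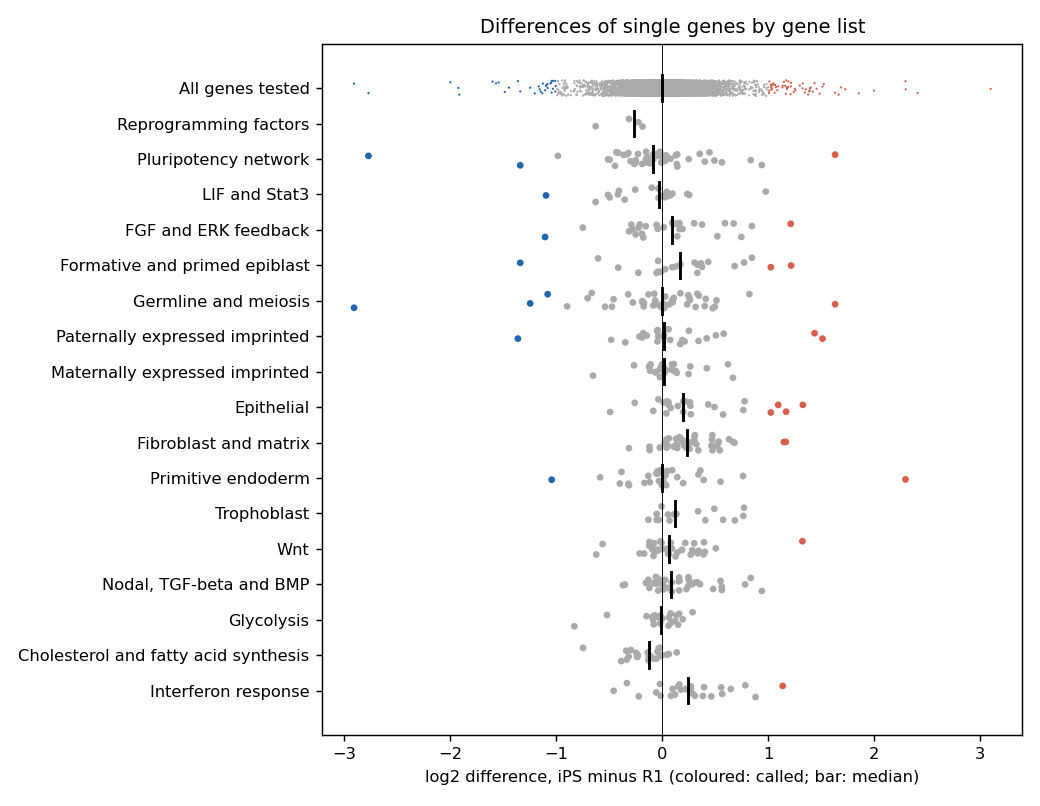
Differences iPS minus R1 (log2) of single genes in 17 of the gene lists and of all genes tested, 1 point per gene; red points rose, blue points fell, grey points were not called and black bars are medians. The medians of the epithelial and the fibroblast and matrix lists lie at 0.20 and 0.23, that of all genes at -0.01.

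Sex-linked genes differed in part. The Y-linked demethylase genes Uty and Kdm5d rose. Uty read 320, 352 and 288 in R1 against 798, 838 and 949 in iPS arrays (1.39 ± 0.09, limma adjusted p = 6.06e-05), and Kdm5d read 29.9, 29.04 and 22.8 against 89.9, 73.0 and 85.04 (1.19 ± 0.09, limma adjusted p = 9.42e-05). Kdm5d missed the minimum with 32 added in place of 16 (0.95). Eif2s3y, a Y-linked translation factor gene, went the other way without reaching the minimum, at 642 ± 26 against 421 ± 36 (SD, n = 3; -0.59 ± 0.07, limma adjusted p = 0.00113). Xist, the RNA that silences an X chromosome, was at 79.7 ± 16 in R1 and 80.8 ± 5.9 in iPS arrays, against 796 in MEF.

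In the remaining lists the calls were few, beside 0.461% called of all genes. Among formative and primed epiblast genes, 2 of 23 rose (Pim2 and Cldn6) and 1 fell (Otx2), with a median of 0.17. Sox11, a neural transcription factor and the 1 call among 20 ectoderm genes, read 186, 199 and 199 against 443, 377 and 431 (1.03 ± 0.09, limma adjusted p = 0.000187), and without iPS replicate 1 it was at 0.99. Ifitm3, an interferon-induced membrane protein gene, was the 1 call of 26 interferon genes, at 1209, 1641 and 1067 against 2837, 3019 and 2684 (1.14 ± 0.13, limma adjusted p = 0.00100), and the list's median was 0.24. Mylpf, a muscle myosin light chain gene, rose by 1.21 ± 0.19, the 1 call of 14 muscle genes. Of the 36 lists, 20 with 412 measured entries held no called gene, and their medians lay between -0.27 and 0.14. These covered the reprogramming factors, Hox genes, Polycomb, DNA methylation, cell cycle, glycolysis, and Nodal, TGF-beta and BMP signalling, among others. Some single members passed the test without the minimum there. Dnmt3b, a de novo DNA methyltransferase, was at 0.68 ± 0.13 and Dnmt3a, the second, at -0.60 ± 0.15. Among p53 targets the nuclease gene Aen was at -0.97 ± 0.09, and among glycolysis genes Pfkp was at -0.83 ± 0.08. In cholesterol and fatty acid synthesis 21 of 24 differences were negative, against 10560 of all 19938 genes (20 against 10325 after quantile normalization). The list's median was -0.13. Without the minimum 4 passed, all lower, a direction in which 4.40% of all genes passed. The desaturase gene Scd1 (-0.75 ± 0.08) had the largest difference.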

How the data were processed

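The authors deposited 1 linear intensity value per probe set and array. GCOS 1.4 appears in the submitters' processing notes, with no role given. How background was corrected, probes summarized and arrays normalized is not given in the sources used here. Values lay between 4 and 18820.3, each being 2 raised to a 2-decimal number. Low signals were not told apart from background, and the mean signal was under 50 for 30.1% of genes. The platform annotation gave 1 gene symbol for 21789 of 35557 probe sets, several for 1621 and no entry for 12147. The probe set with the highest mean represented each of 999 genes with several.

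Differences of log2(signal + 16) were fitted with limma 3.58.1 (R 4.3.3; lmFit, eBayes) over all 9 arrays, with 6 residual degrees of freedom, so the MEF arrays add to the estimate of the spread. All adjusted p-values are Benjamini-Hochberg values over 19938 genes. The fit was tested on simulated data. The comparison, its gene lists (36 lists, 883 genes, 798 measured, 58 in more than 1 list) and the naming rule were chosen with earlier results of these data known. The rule named the 12 largest increases and decreases with arrays that did not overlap, passing over Riken and predicted symbols, up to 6 called members of each list, called neighbours of equal sign, the core factors, and the imprinted cluster and sex-linked lists. Neighbours were taken from the RefSeq annotation of GRCm38.p6, and mature sequences were matched by symbol for 270 of 300 microRNA genes. Alternatives covered scaling, the added constant, dim genes, probe sets, thresholds, weights, a replicate block and leaving out each array.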

Additional observations from a re-analysis of the deposited data

How the results depend on the processing

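The count of 92 calls (59 higher, 33 lower) moved with the minimum difference, the added constant and single arrays. Without a minimum 1699 genes passed (821 higher, 878 lower), with a 1.5-fold minimum 385 (210 higher, 175 lower), and when tested against a difference of 1 in place of 0 only 10 (4 higher, 6 lower). Taking every probe set, named or not, gave 144 calls (93 higher, 51 lower) of a larger table. With nothing added before the logarithm 127 genes were called, 56 of them lower, and with 32 added 68 were. Leaving out 1 array gave 79 to 107 calls, 51 to 71 higher and 25 to 50 lower, the last without iPS replicate 3. Of the 92 genes, 35 lost their call in at least 1 of the 6 fits without an R1 or iPS array, and 53 were called in every other alternative except the test against 1. None of the 92 called genes changed direction in any alternative, and of the uncalled genes followed, Rtl1 and Xist, both close to 0, changed sign in some. The cause of these changes was not tested.

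Whether replicate numbers pair the samples was not tested. Deviations of same-numbered R1 and iPS arrays from their group means correlated at 0.245, 0.018 and -0.082 across genes. Other-numbered arrays gave -0.177 to 0.193, and all these values depend on each other. A replicate block left 92 calls over 9 arrays and 82 (51 higher, 31 lower) over the 6 arrays alone. No detection calls were used, so signal over background is unknown for dim genes.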

Other observations

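Probe sets without a single gene symbol also differed. Of 13768 tested together with the named ones, 47 were called, 31 higher and 16 lower in iPS cells. They are unnamed here, and no gene is assigned to them.

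Several genes outside the lists and the naming rule passed the same threshold, chosen here after their values were seen. Gja1, which encodes connexin 43 of gap junctions, read 1003, 942 and 849 in R1 arrays against 2721, 2120 and 2647 in iPS arrays (1.401 ± 0.10, limma adjusted p = 6.06e-05). Slc1a5, a glutamine transporter gene, read 393, 367 and 425 against 826, 820.3 and 885 (1.07 ± 0.06, limma adjusted p = 2.05e-05). Nod1, a sensor of bacterial cell wall fragments, read 72.0, 66.7 and 58.1 against 127, 199 and 223 (1.26 ± 0.17, limma adjusted p = 0.00230). Mid1, an X-linked microtubule-associated ubiquitin ligase, read 131, 154 and 122 against 399, 357 and 388 (1.39 ± 0.08, limma adjusted p = 2.05e-05). Of the decreases, Atp2a3, a calcium pump of the endoplasmic reticulum, read 205, 194 and 184 against 86.2, 86.2 and 84.4 (-1.05 ± 0.07, limma adjusted p = 4.36e-05), and it missed the minimum with 32 added in place of 16 (-0.94). AI506816, an unnamed transcript, rose from 31.9 ± 10.5 to 235 ± 27 (SD, n = 3), with a MEF mean of 685.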
